A study of Mus musculus with 15 samples.

Results

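The genes described here encode the enzymes that remove reactive oxygen species and that make, use and recycle glutathione. They were chosen by gene symbol, not by any measured value: a probe set was taken if the platform annotation gave it exactly 1 symbol and that symbol began with Gst, Gpx, Prdx, Txn, Glrx or Sod, or was Cat, Gclc, Gclm, Gss, Gsr, Nqo1, Hmox1, Hmox2 or Srxn1. This gave 66 genes, held by 123 probe sets, of 18193 genes with 1 symbol on the array. Each gene was represented by the probe set with the highest mean over all 15 arrays, and 51 of the 66 genes passed the filter on low signal and were tested, among 12028 tested genes.

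Superoxide dismutases turn superoxide into hydrogen peroxide, which catalase, the glutathione peroxidases and the peroxiredoxins reduce to water. Glutathione peroxidases draw on glutathione, a tripeptide made by glutamate-cysteine ligase and glutathione synthetase and recycled by glutathione reductase, and peroxiredoxins draw on thioredoxin, which thioredoxin reductase recycles with NADPH. Glutathione transferases couple glutathione to reactive compounds, and glutaredoxins reduce mixed disulfides between proteins and glutathione. Oocytes store glutathione during maturation, and fully grown oocytes are transcriptionally quiet, so that transcript levels during meiotic maturation are set largely by storage, polyadenylation and decay of maternal mRNA.

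All oocytes came from B6D2F1 female mice and were measured on Affymetrix arrays, 1 pool of 150 oocytes per array. Metaphase II (MII) oocytes of adult females, 7 to 8 weeks old, had matured either in vivo after hCG (3 arrays) or in vitro for 16 hours (2 arrays), and fully grown germinal vesicle (GV) oocytes of adult females were the stage before maturation (2 arrays). From females of postnatal day 26 (d26, peripubertal) there were MII oocytes matured in vivo (2 arrays) and in vitro (3 arrays), and from females of day 20 (d20, prepubertal) there were MII oocytes matured in vitro (3 arrays). All females had received PMSG, the ovaries were taken for GV oocytes 48 hours later, and hyaluronidase had been used in every group to strip the cumulus cells. The labels do not say whether the pools of 1 group came from separate animals, so p-values measure the spread between these pools.

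Array brightness differed and bears on several of these genes. The median deposited intensity ran between 5.08 and 25.3 over the arrays. A set of 4 arrays, here called dim, had 2615 to 3042 probe sets above an intensity of 200 (adult in vivo array 1, adult in vitro array 2, and d26 in vitro arrays 2 and 3), against 4882 to 9819 in the others, and the GV arrays were the brightest at 9696 and 9819. Values below are log2 intensities after quantile normalization, which gives every array the same distribution. A change therefore reads relative to all other transcripts of the oocyte. Differences are on the log2 scale, and a gene is called where limma's p-value, adjusted by the Benjamini-Hochberg method over 22519 tested probe sets, is below 0.05.

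Oocyte markers were present in every group, with 11 or 12 of 12 above the filter level. Of the marker lists for other cells, the summed normalized intensity of 9 leukocyte markers was 156 to 546 in adult in vivo MII arrays and 66.3 to 116 in adult in vitro MII arrays, against 46.8 to 50.2 in GV arrays. For 7 oviduct markers the sums were 170 to 512 in adult in vivo MII arrays, 27.7 to 129 in adult in vitro MII arrays and 104 to 114 in GV arrays. For the 11 measured of 12 cumulus markers they were 210 to 362, 279 to 295 and 132 to 168 in the same order of groups. The part of these cells in the differences between adult in vivo MII and the other groups was not tested. The 3 measured erythrocyte markers summed to 178 to 234 in d26 in vivo MII arrays, against 41.9 to 116 in d26 in vitro MII arrays. In adult oocytes they summed to 73.5 to 145 in in vivo MII arrays and 30.7 to 57.5 in in vitro MII arrays, against 31.8 to 46.2 in GV arrays, and their part was likewise not tested. The ratio of 3′ to 5′ Gapdh signal was 82.3 and 68.0 in the d26 in vivo MII arrays, against 2.27 to 26.8 in all other arrays. These ratios rest on low signals. The 5′ reading was 0.76 and 3.99 in the d26 in vivo MII arrays. The lowest ratios, 2.27 and 3.31, came from the dim adult in vitro array 2 and adult in vivo array 1. Their 3′ readings were 21.6 and 24.6.

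Most antioxidant transcripts that changed between the GV and the MII stage were lower in MII oocytes. In adult in vivo MII against GV oocytes, 15 of the 51 tested genes were called, 3 higher and 12 lower, which is 29.4% of them, where 30.6% of all tested genes were called. The split differed from that of all genes: 5.88% of the antioxidant genes were higher and 23.5% lower, against 18.3% higher and 12.3% lower among all tested genes. Their median difference was -0.49, against 0.26 over all tested genes. In adult in vitro MII against GV oocytes, 18 were called, 4 higher and 14 lower (35.3%, where 31.3% of all tested genes were called, 18.4% higher and 12.9% lower), and the median difference was -0.95, against 0.13. Whether the split of the list differs from that of all genes was not tested. Both comparisons share the same 2 GV arrays. Leaving out 1 GV array or 1 adult in vitro array, as below, left 1 array in that group. So did leaving out the 4 dim arrays in the adult in vitro group. The fit then assumes that this group varies like the others. A call lost in this way can come with a difference that hardly moved. In no called gene did the MII and GV arrays overlap, but the share of all tested genes without overlap is not given here. With 2 or 3 arrays per group, separated arrays largely go with a call and add no separate support. Another 33 tested probe sets read 22 of the genes. Against GV oocytes, 24 of these in vivo and 25 in vitro had the same call as the probe set used. Where the probe set used was called, 8 in vivo and 7 in vitro were not. In vitro 1, of Sod1, was called the opposite way. The sign was the same for 27 in vivo and 23 in vitro.

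**Figure D1:**
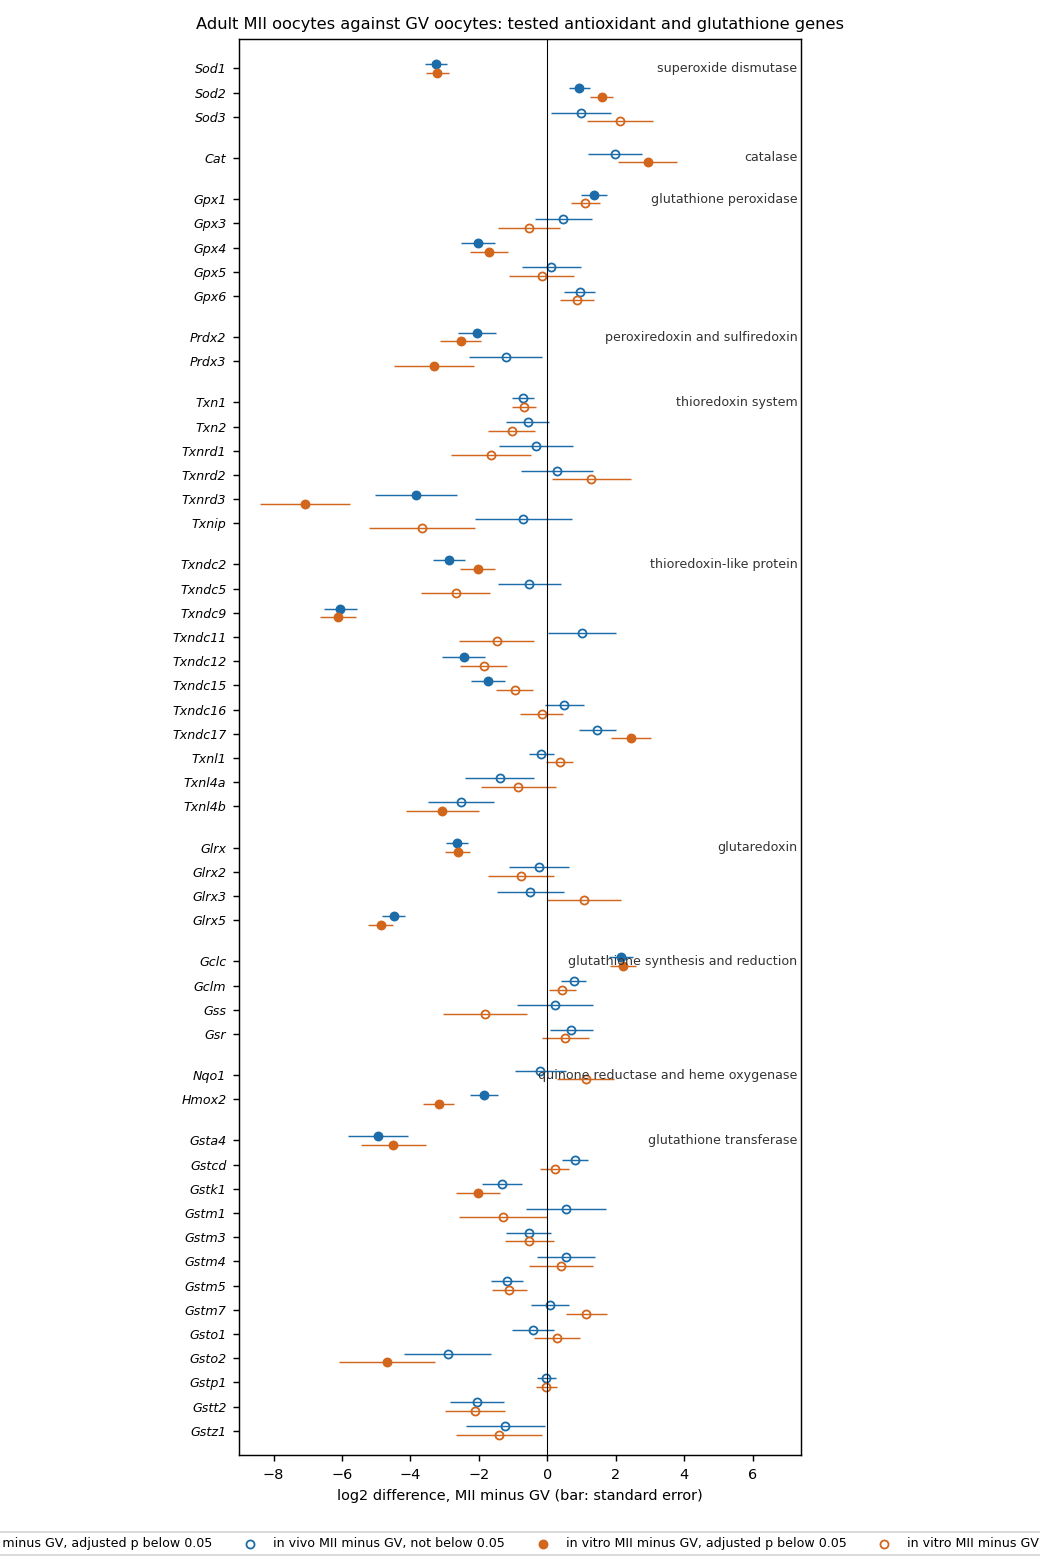
Log2 differences between adult MII and GV oocytes for the 51 tested genes, arranged by role. Blue circles are in vivo MII minus GV, orange circles in vitro MII minus GV, bars are standard errors from the fit over 15 arrays, and filled circles mark adjusted p below 0.05. The filled circles lie mostly left of 0, farthest for Txndc9, Glrx5, Gsta4 and, in vitro, Txnrd3, while Sod2 and Gclc lie right of it in both, though on deposited intensities Sod2 (-0.13 and -0.22) and, in vitro, Gclc (-0.65) are negative.

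On deposited intensities and with median scaling, most falls kept their calls and most rises lost them. Both scales also moved the median of all tested probe sets toward lower values in MII oocytes. They therefore favour falls and cannot show that the falls are independent of scaling. Quantile normalization put that median at positive values (0.24 in vivo and 0.13 in vitro) and so favours rises. The rises cannot be shown to be independent of scaling either. On the deposited intensities, without normalization, the calls in adult in vivo MII oocytes were 0 higher and 14 lower. In adult in vitro MII oocytes they were 0 higher and 21 lower. The median of all tested probe sets was itself at -0.98 and -1.94 on that scale. Of the falls, 11 of 12 in vivo and 14 of 14 in vitro kept their call there, and none of the rises did. With arrays scaled by their medians only, the calls were 0 higher and 16 lower in vivo and 1 higher and 18 lower in vitro. The medians of all tested probe sets were -0.21 and -0.53, against 0.24 and 0.13 after quantile normalization. The share of all tested genes called on these scales is not given here, so the counts describe the list alone. Poly(A)+ RNA was extracted, so less RNA of a gene and shorter poly(A) tails cannot be told apart. Fewer cells of a type and less RNA per cell cannot be told apart in pooled samples either.

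The 3 genes with the smallest adjusted p in both comparisons with GV oocytes were Sod1, Glrx5 and Txndc9, and all were lower in MII oocytes. Their promoters are shown because these are the members with the smallest adjusted p, and because the core of the antioxidant response element, the DNA sequence through which Nrf2 acts on many genes of this class, could be looked up in them. Each line gives the 250 bases before the transcription start in the RefSeq annotation of GRCm38.p6, read 5′ to 3′ on the strand of the gene, in lower case with a match to the core in capitals.
Sod1, chr16:90220512-90220761, plus strand: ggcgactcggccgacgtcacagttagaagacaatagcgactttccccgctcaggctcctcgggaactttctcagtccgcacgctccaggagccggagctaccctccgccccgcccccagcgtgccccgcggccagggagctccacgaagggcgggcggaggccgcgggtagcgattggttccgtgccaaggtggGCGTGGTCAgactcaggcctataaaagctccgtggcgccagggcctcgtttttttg
Glrx5, chr12:105032368-105032617, plus strand: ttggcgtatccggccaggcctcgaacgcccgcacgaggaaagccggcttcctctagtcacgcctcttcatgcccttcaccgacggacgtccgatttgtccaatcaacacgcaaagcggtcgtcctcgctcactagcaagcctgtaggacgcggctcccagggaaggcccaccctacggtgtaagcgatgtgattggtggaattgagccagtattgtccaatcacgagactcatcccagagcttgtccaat
Txndc9, chr1:37997209-37997458, minus strand: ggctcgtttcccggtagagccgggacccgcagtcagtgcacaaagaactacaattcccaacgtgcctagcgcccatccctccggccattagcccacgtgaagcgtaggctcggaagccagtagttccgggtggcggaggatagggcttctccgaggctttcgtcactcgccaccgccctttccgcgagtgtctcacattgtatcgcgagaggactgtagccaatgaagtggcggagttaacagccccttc

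The core searched was TGACNNNGC, on both strands. The Sod1 window holds 1 match, on the opposite strand, 56 bases before the start, and the other 2 windows hold none. Of the 66 genes, 58 were matched in the promoter table, and 9 of these (15.5%) had the core in at least 1 window, against 3112 of 27025 genes (11.5%) in the whole table. Some genes have several windows. Counted by window, the shares were nearly equal, at 9 of 82 (11%) against 3338 of 32851 (10.2%). The 9 genes were Sod1, Gclm, which encodes the modifier subunit of glutamate-cysteine ligase, Txnrd1, Txndc2, Txndc5, Txndc11, Gsta3, Gstm5 and Gstm7. A match to these letters is a description of the window and not a binding site.

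Among the superoxide dismutases, Sod1, the copper and zinc enzyme of the cytosol, fell and Sod2, the manganese enzyme of mitochondria, rose on the normalized scale. Sod1 stood at 9.72, 9.23 and 8.97 in adult in vivo MII arrays and at 9.29 and 9.40 in adult in vitro MII arrays, against 12.63 and 12.49 in GV arrays. All adult MII arrays lay about 3 log2 units below both GV arrays. The difference was -3.25 (SE 0.31, limma adjusted p = 8.55e-06) in vivo and -3.21 (SE 0.34, adjusted p = 2.07e-05) in vitro, that is 9.55-fold and 9.26-fold lower.
On the deposited scale the Sod1 probe set read 334, 984 and 812 in adult in vivo MII arrays and 551 and 213 in adult in vitro MII arrays, against 9378 and 7637 in GV arrays. The probe sets of Sod1 disagreed. Another one was lower in MII oocytes by like amounts (-3.46 in vivo and -3.71 in vitro), whereas one with lower signal was higher in adult in vitro MII than in GV oocytes (1.57, adjusted p = 0.0278) and stood at 1.26 (adjusted p = 0.053) in vivo.

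Sod2 stood at 10.94, 9.98 and 10.36 in adult in vivo MII arrays and at 10.93 and 11.23 in adult in vitro MII arrays, against 9.60 and 9.38 in GV arrays. All MII arrays lay above both GV arrays. The differences were 0.94 (SE 0.31, limma adjusted p = 0.0350) in vivo and 1.59 (SE 0.34, adjusted p = 0.00255) in vitro, and on deposited intensities they turned to -0.13 and -0.22. Among MII arrays of all ages, Sod2 read 10.94 to 11.49 in the 4 dim arrays and 9.98 to 10.93 in the other 9, and without adult in vivo array 1, which is dim, the in vivo difference was 0.68 (adjusted p = 0.113). Leaving out a GV array or adult in vivo array 3 also ended the in vivo call, with adjusted p of 0.0616 to 0.213. Sod3, the extracellular enzyme, did not pass the test (0.98 in vivo and 2.13 in vitro).

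Catalase, which breaks down hydrogen peroxide in peroxisomes, rose in adult in vitro MII oocytes on the normalized scale. Cat stood at 8.55, 5.83 and 6.47 in adult in vivo MII arrays and at 7.23 and 8.59 in adult in vitro MII arrays, against 4.85 and 5.11 in GV arrays. All MII arrays were above both GV arrays, and the dim arrays were highest. The difference was 2.93 (SE 0.87, limma adjusted p = 0.0203) in vitro and 1.97 (SE 0.80, adjusted p = 0.0835) in vivo, and the adult in vivo minus in vitro difference was -0.96 and not called. On deposited intensities the differences from GV oocytes were 0.26 in vitro and 0.24 in vivo, not called. In vivo Cat was called with array weights (1.47, limma adjusted p = 0.00783), without adult in vivo array 2 (2.53, adjusted p = 0.0354) and without d26 in vitro array 2 (adjusted p = 0.0436). The in vitro call was lost without GV array 1 or 2 (2.80 and 3.06) and without the dim in vitro array 2 (2.25).

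Of the 5 tested glutathione peroxidases, Gpx4 fell in both comparisons and Gpx1 rose in one. Gpx4, which reduces lipid hydroperoxides in membranes, stood at 5.76, 6.23 and 5.60 in adult in vivo MII arrays and at 5.73 and 6.64 in adult in vitro MII arrays, against 7.78 and 7.99 in GV arrays. Its difference was -2.02 (SE 0.50, limma adjusted p = 0.00697) in vivo and -1.71 (SE 0.55, adjusted p = 0.0299) in vitro. The in vitro call was lost without GV array 1 or 2 (-1.81 and -1.60) and without adult in vitro array 1 (-1.25). The in vivo call was lost without GV array 2 (-1.92).
Gpx1, the widely expressed cytosolic form, stood at 6.72, 6.72 and 6.96 in adult in vivo MII arrays and at 6.79 and 6.32 in adult in vitro MII arrays, against 5.32 and 5.56 in GV arrays. All MII arrays were above the GV arrays. The in vivo difference of 1.36 (SE 0.39, limma adjusted p = 0.0165) was called and the in vitro difference of 1.11 (SE 0.42, adjusted p = 0.0655) was not, and on deposited intensities both were negative (-0.52 and -1.71). The in vivo call was lost without GV array 1 (1.24), GV array 2 (1.48) or adult in vivo array 3 (1.28, limma adjusted p = 0.0511). In vitro Gpx1 was called without d26 in vitro array 2 (limma adjusted p = 0.0416) and with the upper 30% of probe sets tested (adjusted p = 0.0302). Without the 4 dim arrays, which left array 1 alone in the adult in vitro group, the in vitro difference was 1.35. The other 3 tested, Gpx3, Gpx5 and Gpx6, were between -0.53 and 0.95 in both comparisons and did not pass the test, and Gpx2, Gpx7 and Gpx8 were under the signal filter.

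Peroxiredoxins are abundant peroxidases that depend on thioredoxin. Prdx2, a cytosolic one, stood at 8.48, 10.38 and 10.49 in adult in vivo MII arrays and at 9.89 and 8.73 in adult in vitro MII arrays, against 12.06 and 11.63 in GV arrays. The dim array was the lowest in each MII group, and all were below the GV arrays. The difference was -2.06 (SE 0.55, limma adjusted p = 0.0111) in vivo and -2.53 (SE 0.60, adjusted p = 0.00529) in vitro. The in vivo call was lost without GV array 1 (adjusted p = 0.101), with median scaling (-1.94, adjusted p = 0.101), with the compared arrays alone (0.0547) and on deposited intensities (-2.72, adjusted p = 0.129), where it was the 1 in vivo fall without a call, and the in vitro call was lost without the dim in vitro array 2 (0.0746).
Prdx3, the mitochondrial form, stood at 4.50, 6.04 and 5.20 in adult in vivo MII arrays and at 3.42 and 2.87 in adult in vitro MII arrays, against 6.88 and 6.05 in GV arrays. Only the in vitro difference of -3.32 (SE 1.18, limma adjusted p = 0.0484) was called, and 13 of 23 other settings ended that call, among them leaving out GV array 1 (0.228) and adult in vitro array 2 (0.180). The in vivo difference was -1.22 (SE 1.07). Prdx4 and the sulfiredoxin Srxn1, which repairs overoxidized peroxiredoxins, were under the filter.

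The thioredoxin system proper had 6 tested genes, and with all 15 arrays weighted equally on the normalized scale Txnrd3 alone was called in either comparison. Txn1, cytosolic thioredoxin, stood at 9.37, 8.88 and 8.82 in adult in vivo MII arrays and at 8.89 and 9.22 in adult in vitro MII arrays, against 9.82 and 9.67 in GV arrays. The arrays did not overlap, but the differences of -0.72 (SE 0.32, limma adjusted p = 0.116) and -0.69 (SE 0.35, adjusted p = 0.167) did not pass the test in that fit. Txn1 was called lower in vivo with median scaling (-1.05, limma adjusted p = 0.0375), with array weights (-0.87, adjusted p = 0.00252) and without the 4 dim arrays (-0.89, adjusted p = 0.0217). In vitro it was called lower with median scaling (-1.34, limma adjusted p = 0.0165) and on deposited intensities (-2.75, adjusted p = 0.0161). Txnrd3, a thioredoxin reductase with a glutaredoxin domain that is best known from testis, stood at 4.15, 6.77 and 5.99 in adult in vivo MII arrays and at 5.28 and -0.48 in adult in vitro MII arrays, against 9.56 and 9.40 in GV arrays.
Its difference was -3.84 (SE 1.20, limma adjusted p = 0.0270) in vivo and -7.08 (SE 1.32, adjusted p = 0.00103) in vitro, the second resting in part on the dim in vitro array 2, without which it was -4.20 (adjusted p = 0.00843). The in vivo call was lost without adult in vivo array 1 (0.0860) and without GV array 1 or 2 (0.135 and 0.124).
Txnrd1, the cytosolic reductase, was at -0.33 (SE 1.08) in vivo and, in the in vitro comparison, at -1.64 (SE 1.18), and its in vivo difference turned to 1.25 without the 4 dim arrays, where it was called higher (limma adjusted p = 0.0404). Txnip, an inhibitor of thioredoxin, stood at 7.66, 12.55 and 11.36 in adult in vivo MII arrays and at 8.89 and 6.25 in adult in vitro MII arrays, against 11.90 and 10.56 in GV arrays. Among MII arrays of all ages Txnip read 5.21 to 8.90 in the 4 dim arrays and 8.89 to 12.55 in the other 9. Txn2 and Txnrd2, the mitochondrial thioredoxin and its reductase, did not pass the test either (-0.58 and 0.28 in vivo, -1.04 and 1.29 in vitro).

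Among proteins with a thioredoxin-like domain was the member with the largest fall in vivo, Txndc9. Txndc9, which binds the chaperonin CCT that folds actin and tubulin, stood at 6.25, 6.21 and 6.52 in adult in vivo MII arrays and at 6.29 and 6.20 in adult in vitro MII arrays, against 12.39 and 12.35 in GV arrays. The adult arrays within a stage lay within 0.4 log2 units of each other, whereas MII arrays of all ages ran from 4.11 to 6.87. The difference was -6.04 (SE 0.49, limma adjusted p = 3.00e-06) in vivo and -6.12 (SE 0.53, adjusted p = 5.85e-06) in vitro. Of the other 2 probe sets of Txndc9, one gave -5.70 and -6.42, also called, and one near the filter level gave -1.61 and -1.96 and was not called.

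Of the other 10 tested thioredoxin-like genes, Txndc2 fell in both comparisons. Txndc2, described in sperm as a thioredoxin of the tail, stood at 6.51, 5.53 and 6.40 in adult in vivo MII arrays and at 6.77 and 7.21 in adult in vitro MII arrays, against 8.85 and 9.20 in GV arrays. Its difference was -2.88 (SE 0.46, limma adjusted p = 0.000383) in vivo and -2.03 (SE 0.51, adjusted p = 0.00755) in vitro, and the in vitro call was lost without GV array 2 (0.0713).
Txndc12, a thioredoxin-like protein of the endoplasmic reticulum, fell by 2.44 in vivo (SE 0.64, limma adjusted p = 0.00977) and differed by -1.86 in vitro (adjusted p = 0.0603). Txndc15, a membrane protein needed for cilia, fell by 1.74 in vivo (SE 0.50, limma adjusted p = 0.0167) and differed by -0.95 in vitro (adjusted p = 0.226). Without GV array 1 or 2 Txndc12 was not called, though its difference hardly moved (-2.41 and -2.48). Txndc15 was not called without GV array 1, where it stood at -1.33.
In vitro, Txnl4b, a protein related to a spliceosome subunit, fell by 3.08 (SE 1.07, limma adjusted p = 0.0436), with 1.45 and 5.10 in the adult in vitro MII arrays against 6.37 and 6.33 in GV arrays. The 2 in vitro arrays stood far apart, and without array 1 the difference was -1.25 (adjusted p = 0.397), without array 2 it was -4.90 (0.00575). The call was lost in 10 of 23 other settings, among them leaving out GV array 1 (0.159) or GV array 2 (0.160), testing without the signal filter (0.0688) and fitting the compared arrays alone (0.108).
Txndc17, a small cytosolic oxidoreductase also known as TRP14, rose on the normalized scale. It stood at 10.02, 8.45 and 8.45 in adult in vivo MII arrays and at 9.51 and 10.41 in adult in vitro MII arrays, against 7.67 and 7.35 in GV arrays. The in vitro difference of 2.45 (SE 0.59, limma adjusted p = 0.00572) was called and the in vivo difference of 1.47 (SE 0.54, adjusted p = 0.0568) was not. On deposited intensities the in vitro value was -0.08, without GV array 2 the adjusted p was 0.0505, and without in vitro array 2 it was 0.0698. The other 6 genes of the group, Txndc5, Txndc11, Txndc16, Txnl1, Txnl4a and, below the filter, Txndc8, gave no call.

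Both glutaredoxins that changed fell strongly. Glrx5, which works in mitochondrial assembly of iron-sulfur clusters, stood at 7.26, 7.52 and 7.68 in adult in vivo MII arrays and at 7.04 and 7.17 in adult in vitro MII arrays, against 11.89 and 12.05 in GV arrays. In these adult arrays the stages were separated by over 4 log2 units. The difference was -4.49 (SE 0.34, limma adjusted p = 2.04e-06) in vivo and -4.86 (SE 0.37, adjusted p = 2.51e-06) in vitro, 22.4-fold and 29.1-fold lower.
Glrx, the cytosolic glutaredoxin, stood at 8.89, 8.45 and 8.87 in adult in vivo MII arrays and at 8.34 and 9.17 in adult in vitro MII arrays, against 11.09 and 11.65 in GV arrays. The difference was -2.64 (SE 0.33, limma adjusted p = 6.28e-05) in vivo and -2.62 (SE 0.36, adjusted p = 0.000149) in vitro, 6.23-fold and 6.13-fold lower. Glrx2 and Glrx3 did not pass the test.

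**Figure D2:**
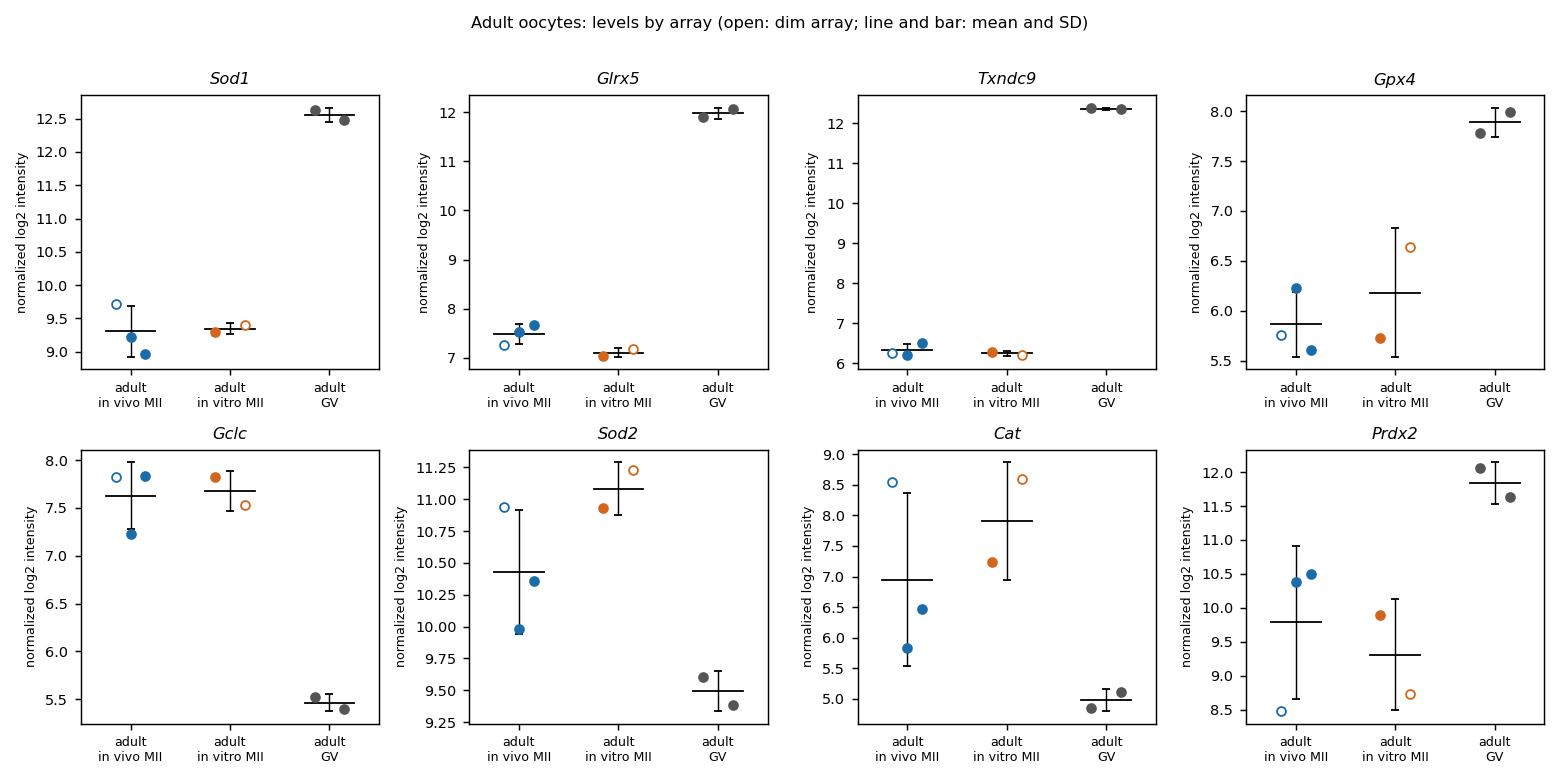
Normalized log2 intensity by array of 8 genes in adult in vivo MII, adult in vitro MII and GV oocytes. Each point is 1 array, open points are dim arrays, and the line and bar give the mean and SD of the group. Sod1, Glrx5, Txndc9, Gpx4 and Prdx2 are lower in all MII arrays than in both GV arrays, and Gclc, Sod2 and Cat are higher on this scale, with Sod2 (-0.13 in vivo and -0.22 in vitro) and Gclc in vitro (-0.65) negative on deposited intensities.

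In glutathione synthesis, Gclc rose on the normalized scale and the other 3 genes did not pass the test with all arrays weighted equally. Gclc, the catalytic subunit of glutamate-cysteine ligase and the rate-limiting enzyme of glutathione synthesis, stood at 7.82, 7.22 and 7.84 in adult in vivo MII arrays and at 7.83 and 7.53 in adult in vitro MII arrays, against 5.53 and 5.40 in GV arrays. All MII arrays were above both GV arrays, and the call was kept whichever single array was left out. The difference was 2.17 (SE 0.35, limma adjusted p = 0.000377) in vivo and 2.21 (SE 0.38, adjusted p = 0.000624) in vitro, 4.49-fold and 4.64-fold higher.
On the deposited scale the Gclc probe set read 76.5, 245 and 362 in adult in vivo MII arrays and 187 and 51.6 in adult in vitro MII arrays, against 166 and 143 in GV arrays, so that the groups overlapped there, and the differences were 0.30 in vivo and -0.65 in vitro. With median scaling they were 1.07 (limma adjusted p = 0.145) and 0.76 (adjusted p = 0.344). Another probe set of Gclc was called higher in vivo (1.94, limma adjusted p = 0.019) and not in vitro (1.72, adjusted p = 0.052).
Gclm differed by 0.78 (SE 0.36, limma adjusted p = 0.139) in vivo and 0.44 (SE 0.40, adjusted p = 0.473) in vitro, and with array weights it was called higher in vivo (0.83, limma adjusted p = 0.0184). For Gss, glutathione synthetase, the in vivo difference was 0.22 (SE 1.12) and the in vitro one -1.83 (SE 1.23). Gsr, glutathione reductase, was at 0.71 (SE 0.63) and 0.52 (SE 0.69).

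Of the quinone reductase and heme oxygenase genes, 2 were tested. Hmox2, the constitutive heme oxygenase, stood at 6.06, 6.14 and 5.93 in adult in vivo MII arrays and at 4.77 and 4.69 in adult in vitro MII arrays, against 7.54 and 8.26 in GV arrays. The 3 groups did not overlap. The difference was -1.85 (SE 0.41, limma adjusted p = 0.00363) in vivo and -3.17 (SE 0.45, adjusted p = 0.000175) in vitro, and the in vivo call was lost without GV array 2 (0.0900). Nqo1, a quinone reductase and a common readout of Nrf2 activity, was not called, with an in vivo difference of -0.21 (SE 0.75) and an in vitro one of 1.12 (SE 0.82). Hmox1, the inducible heme oxygenase, was under the filter, with readings between -0.08 and 4.16 over the 15 arrays.

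Glutathione transferases were the largest group, with 21 genes of which 13 were tested, and of these 1 was lower in vivo and 3 were lower in vitro. Gsta4, which conjugates the lipid peroxidation product 4-hydroxynonenal, stood at 5.72, 4.84 and 5.34 in adult in vivo MII arrays and at 5.08 and 6.42 in adult in vitro MII arrays, against 10.18 and 10.32 in GV arrays. Its difference was -4.95 (SE 0.87, limma adjusted p = 0.000705) in vivo and -4.50 (SE 0.96, adjusted p = 0.00256) in vitro. The stages were well apart in every array.
Gstk1, a mitochondrial and peroxisomal transferase, fell by 2.03 in vitro (SE 0.65, limma adjusted p = 0.0290) and differed by -1.32 in vivo (adjusted p = 0.120). Gsto2, an omega-class transferase with dehydroascorbate reductase activity, stood at 0.70, 5.76 and 6.51 in adult in vivo MII arrays and at 3.93 and 1.17 in adult in vitro MII arrays, against 7.49 and 6.98 in GV arrays. Its in vitro difference of -4.68 (SE 1.40, limma adjusted p = 0.0213) was called, the lowest readings being those of the dim arrays. Without the dim in vitro array 2 neither Gsto2 (-3.31) nor Gstk1 (-1.70) was called. Neither was called without GV array 1 (-4.43 and -2.07) or GV array 2 (-4.94 and -1.99).
On the normalized scale Gstp1, the pi-class transferase, varied least of all 66 genes over the 15 arrays, with an SD of 0.20. Its differences from GV oocytes were -0.03 (SE 0.27) and -0.02 (SE 0.30). The deposited Gstp1 intensities were 121, 744 and 929 in adult in vivo MII arrays and 394 and 129 in adult in vitro MII arrays. Both GV arrays were higher there, at 1308 and 1062. Of the 8 transferases under the filter, Gsta2 read 3.15, 2.08 and 1.81 in adult in vivo MII arrays and 3.63 and 1.34 in adult in vitro MII arrays, against at least 5.83 in both GV arrays, and was not tested.

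**Figure D3:**
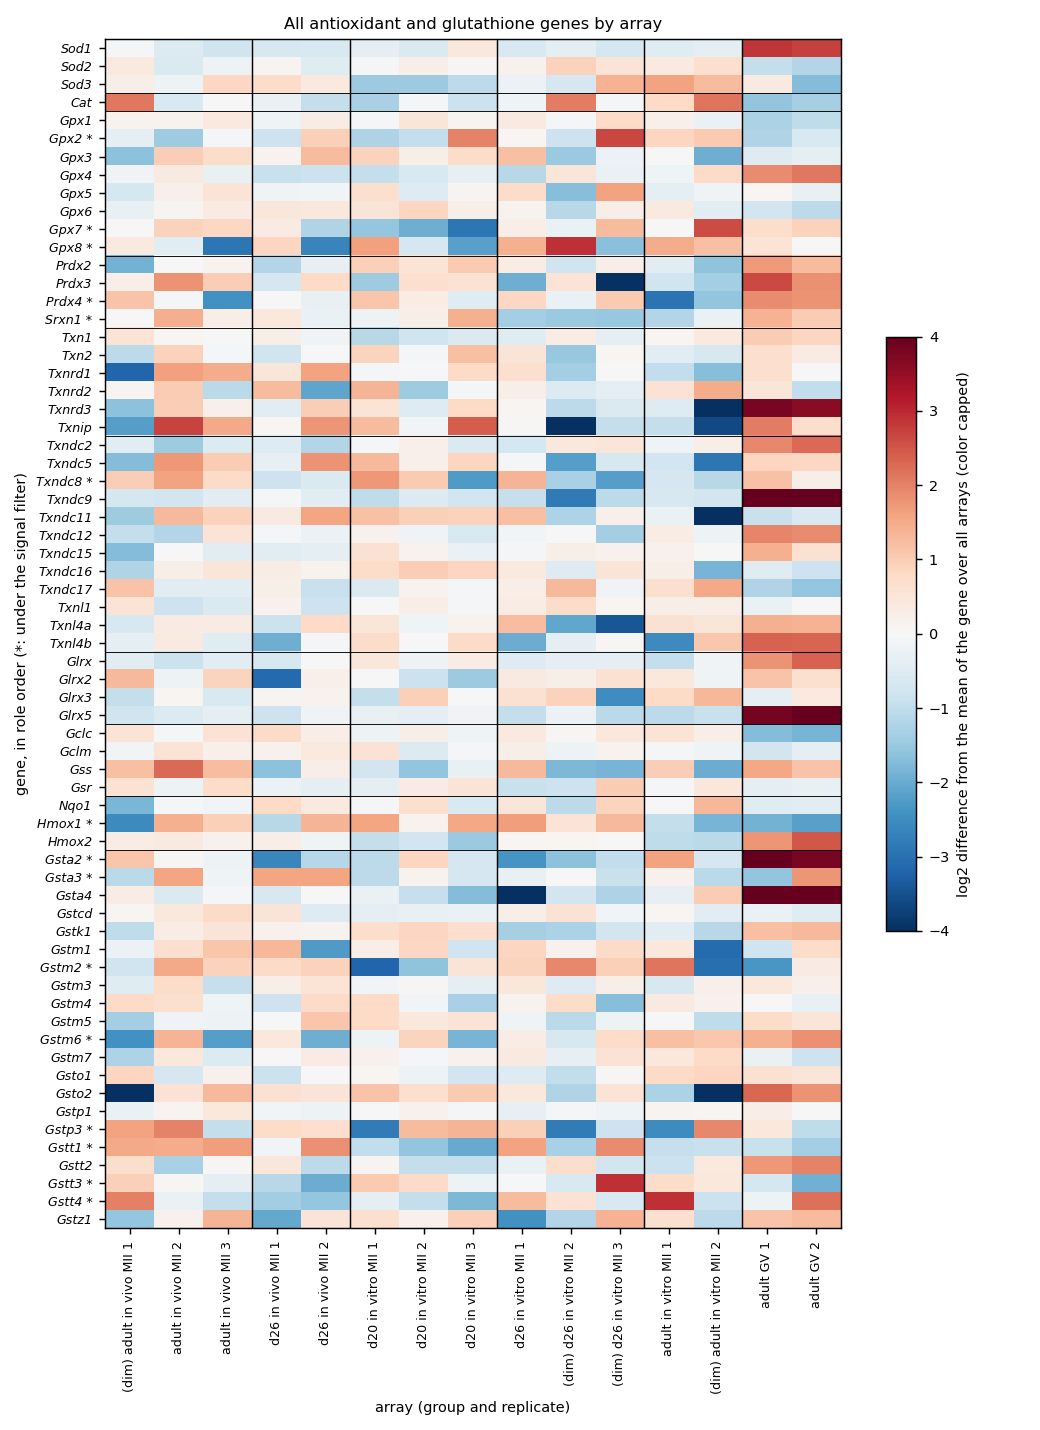
Deviation of each of the 66 genes from its own mean over 15 arrays (red above, blue below, log2 units, color capped at 4), with genes in role order and arrays by group. The GV arrays at the right stand apart in red for Sod1, Txnrd3, Txndc9, Glrx5 and Gsta4, and Txnip and Gsto2 are blue in several arrays marked dim.

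The 4 pathway lists around these enzymes were described in the same fit, and each held more rises than falls on the normalized scale. So did all tested genes, with 18.3% higher and 12.3% lower in vivo and 18.4% higher and 12.9% lower in vitro. Whether the lists differ from all genes was not tested. Of 9 tested regulators of Nrf2 (11 listed), 1 was called higher in each comparison, of 16 tested genes of NADPH supply (18 listed) 4 higher and 2 lower in each. Of 18 tested genes of glutathione precursor transport and turnover (26 listed), 5 were higher and 1 lower in vivo and 5 higher and 2 lower in vitro. Of 22 tested genes for other peroxide, metal and thiol repair (30 listed), 7 were higher and 3 lower in vivo and 8 higher and 3 lower in vitro. On deposited intensities none of the 4 lists held a gene called higher in either comparison.

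Named by the smallest p, the changes lay as follows. Nfe2l2, which encodes Nrf2 itself, stood at 7.47, 7.90 and 8.44 in adult in vivo MII arrays and at 8.29 and 8.68 in adult in vitro MII arrays, against 6.56 and 6.44 in GV arrays, a difference of 1.44 (SE 0.36, limma adjusted p = 0.00843) in vivo and 1.99 (SE 0.40, adjusted p = 0.00178) in vitro. On deposited intensities these were -0.52 and -0.92, and without GV array 2 the in vivo call was lost (0.0737). Keap1, which holds Nrf2 for degradation, differed by -0.32 (SE 0.62) and -1.26 (SE 0.68), not called, and neither were Bach2 and Mafk. In vitro, Keap1 was called lower on deposited intensities (-3.81, limma adjusted p = 0.0156) and with median scaling (-2.40, adjusted p = 0.0133). Mafk was called higher in vitro without d26 in vitro array 2 (limma adjusted p = 0.0226). With 1 adult in vitro array left, Keap1 was at -2.24 (without array 1) and Mafk at 1.57 (without the 4 dim arrays).
In NADPH supply, Tkt, transketolase of the pentose phosphate pathway, stood at 6.01, 5.35 and 5.68 in adult in vivo MII arrays and at 4.63 and 3.24 in adult in vitro MII arrays, against 10.69 and 10.75 in GV arrays. It fell by 5.04 in vivo (SE 0.50, limma adjusted p = 1.15e-05) and by 6.78 in vitro (SE 0.55, adjusted p = 3.48e-06), and fell on every scale used. Idh1, the cytosolic isocitrate dehydrogenase that makes NADPH, rose by 2.35 in vivo (SE 0.29, limma adjusted p = 5.79e-05) and 2.49 in vitro (SE 0.32, adjusted p = 8.65e-05), and stood at 0.75 and 0.03 on deposited intensities. Rpe, also of the pentose phosphate pathway, rose by 2.06 and 3.15, and Mthfd1, of folate metabolism, fell by 1.60 and 1.14. The in vitro call of Mthfd1 was lost without adult in vitro array 1 (0.0657) or GV array 1 (0.103).
Among transporters and turnover genes, Slc7a11, the cystine importer that feeds glutathione synthesis, rose by 2.63 in vivo (SE 0.40, limma adjusted p = 0.000240) and 2.47 in vitro (SE 0.44, adjusted p = 0.000716), and stood at 0.73 and -0.42 on deposited intensities. Cth, which makes cysteine, rose by 2.54 and 3.16 and Slc6a6, the taurine transporter, by 2.02 and 2.27. Abcc1, an exporter of glutathione conjugates, fell by 4.62 in vivo (SE 0.67, limma adjusted p = 0.000185) and by 4.46 in vitro (SE 0.74, adjusted p = 0.000470), and fell on every scale used.
In the repair list, Sephs2 and Sepsecs, both needed to make selenocysteine, rose by 2.23 and 1.87 in vivo and by 2.29 and 2.35 in vitro. Sesn3, a sestrin, rose by 2.16 and 2.46 and Msrb3, a methionine sulfoxide reductase, by 1.80 and 1.42. On deposited intensities none of these 4 genes was called, nor were Rpe, Cth and Slc6a6.

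Between in vivo and in vitro matured MII oocytes no antioxidant gene was called at either age. A missing call does not show equal levels. On simulated data, the script recovered 2.99% of changes of 1 log2 unit in the adult comparison. It recovered 20.9% of changes of 2 log2 units and 65.2% of changes of 4. In adult oocytes 0 of 51 were called, where 0% of all tested genes were called by limma. An unadjusted p below 0.05 was found for 4 of the 51, and for 979 of all 12028 tested genes. In d26 oocytes 0 of 51 were called, where 0.0582% of all tested genes were. Of the 51, 5 had an unadjusted p below 0.05, as had 875 of the 12028. The median difference of the list was 0.09 at both ages, against 0.03 in adult and 0.08 in d26 oocytes over all tested genes. The mean over both ages, added after the data were seen, gave 0 calls (0.249% of all genes). It gave 11 unadjusted p below 0.05 in the list and 1623 among the 12028 genes.

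The gene with the smallest p in adult oocytes was Hmox2. Its level was higher in all 3 in vivo arrays (5.93 to 6.14) than in both in vitro arrays (4.77 and 4.69), a difference of 1.31 (SE 0.41, limma adjusted p = 0.464). In d26 oocytes Hmox2 stood at 6.03 and 5.59 in the in vivo arrays and at 5.85, 5.85 and 5.76 in the in vitro arrays, where the groups overlapped. The dependence of the in vivo minus in vitro difference on age was 1.32 (SE 0.58) and was not called, as for every member (0% of all genes). For this dependence 1 member had an unadjusted p below 0.05, as had 419 of all 12028 tested genes.
Sod2 had the smallest p among genes lower in vivo at both ages and in their mean. In d26 oocytes it stood at 10.66 and 10.08 in the in vivo arrays, against 10.73, 11.49 and 11.10 in the in vitro arrays, so that both in vivo arrays lay below all in vitro arrays. The difference was -0.65 (SE 0.31, limma adjusted p = 0.625) in adult and -0.74 (SE 0.31, adjusted p = 0.678) in d26 oocytes, with a mean of -0.70 (SE 0.22, adjusted p = 0.237). On deposited intensities the 3 values were 0.10, 0.43 and 0.26, and 2 of the 3 d26 in vitro arrays and 1 of the 2 adult in vitro arrays were dim, the arrays in which Sod2 read highest.
Txndc9 had the smallest p in d26 oocytes, with in vivo arrays at 6.5 and 6.87 and in vitro arrays at 6.02, 4.11 and 5.89 (difference 1.35, SE 0.49, limma adjusted p = 0.581). In adult oocytes its difference was 0.08, and the dependence on age was -1.27 (SE 0.69), not called. Txndc5, a protein disulfide isomerase of the endoplasmic reticulum, had the smallest p among genes higher in vivo in the mean over both ages, at 1.93 (SE 0.66, limma adjusted p = 0.283), and it read 6.98 to 9.24 in the 4 dim arrays and 9.11 to 11.66 in the other MII arrays.
Sod1 differed by -0.04 (SE 0.31) in adult and -0.07 (SE 0.31) in d26 oocytes, Gclc by -0.05 (SE 0.35) and 0.22 (SE 0.35), and Gpx4 by -0.32 (SE 0.50) and -0.58 (SE 0.50).

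Leaving out arrays brought a few calls into these comparisons. Without adult in vitro array 1, which leaves the dim array 2 alone in its group, Txnrd3 (6.12, limma adjusted p = 0.00612) and Txndc11 (4.48, adjusted p = 0.0355) were called higher in adult in vivo oocytes, against 3.24 and 2.5 with all arrays. The mean over both ages was then called for both (3.44, limma adjusted p = 0.0162, and 2.69, adjusted p = 0.0439). Without the dim adult in vivo array 1, that mean was called for Txndc5 (2.44, limma adjusted p = 0.0486) and Txnrd1 (2.09, adjusted p = 0.0350). Without the 4 dim arrays, Gsta4 was called higher in d26 in vivo oocytes (4.11, limma adjusted p = 0.0188), where the in vitro group was then array 1 alone, in which Gsta4 read 0.98 against 4.68 and 4.18 in the other 2. A group left with 1 array is assumed in these fits to vary like the other groups.

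**Figure D4:**
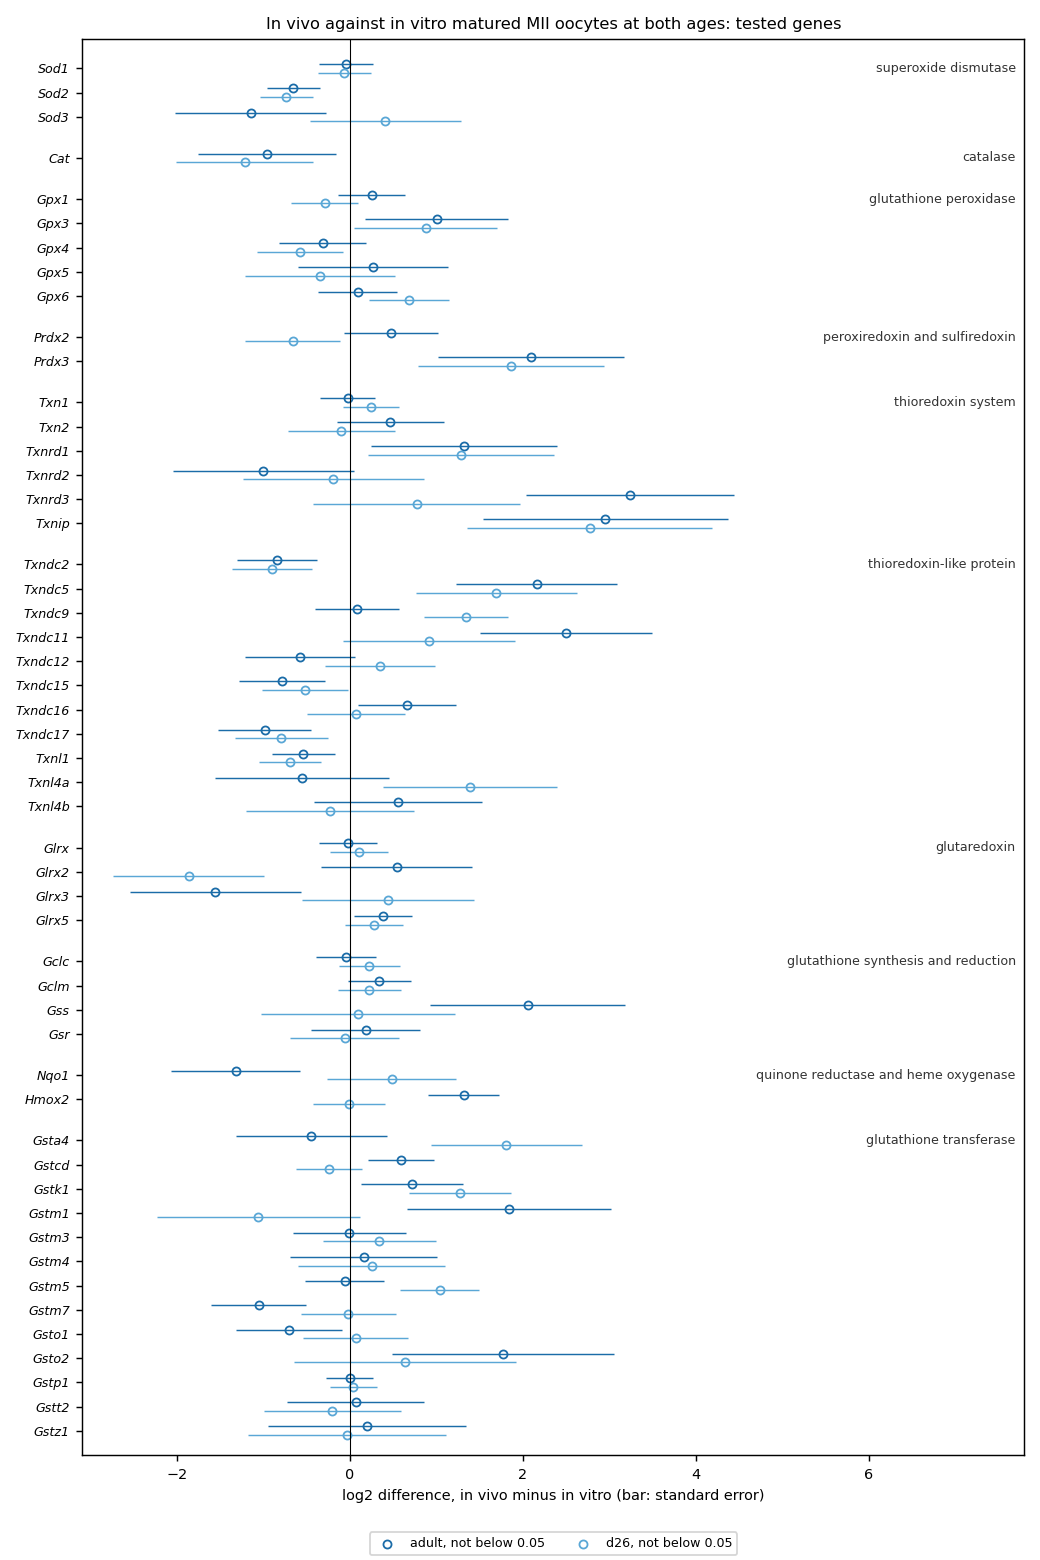
Log2 differences between in vivo and in vitro matured MII oocytes for the 51 tested genes, arranged by role, with dark circles for adult and light circles for d26 oocytes. Bars are standard errors from the fit over 15 arrays, and open circles mark adjusted p not below 0.05, which holds for all 51 genes at both ages. Txnip, Txndc5 and Prdx3 lie to the right and Sod2 and Cat to the left at both ages, Sod2 being positive on deposited intensities (0.10 in adult and 0.43 in d26 oocytes).

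With the age of the female, no antioxidant gene was called among in vitro matured MII oocytes either. In adult against d20 oocytes 0 of 51 were called (0.0333% of all tested genes by limma), with 14 unadjusted p below 0.05. Over all 12028 tested genes, 2307 had an unadjusted p below 0.05 there. In adult against d26 oocytes and in d26 against d20 oocytes 0 were called (0% of all tested genes in each), with 5 unadjusted p below 0.05 in each. Over the 12028 genes these counts were 885 and 1445. The medians of the list were 0.01, -0.01 and -0.25 in these 3 comparisons, against -0.05, 0.02 and -0.07 over all tested genes.

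Txn1 and Prdx2 had the smallest p for a positive and a negative difference between adult and d20 oocytes. Txn1 stood at 7.72, 8.00 and 8.24 in d20 arrays, at 8.33, 9.10 and 8.42 in d26 arrays and at 8.89 and 9.22 in adult arrays. Both adult arrays were above all d20 arrays, and the d26 arrays overlapped with the adult ones. The adult minus d20 difference was 1.07 (SE 0.32, limma adjusted p = 0.173), and on deposited intensities it was -0.54.
Prdx2, which uses thioredoxin, ran the other way, at 11.30, 10.89 and 11.39 in d20 arrays, 10.64, 9.57 and 10.62 in d26 arrays and 9.89 and 8.73 in adult arrays. The adult minus d20 difference was -1.88 (SE 0.55, limma adjusted p = 0.172). The lowest array of the d26 and of the adult group was a dim one. Cat stood at 5.14, 6.39 and 5.58 in d20 arrays, 6.28, 8.50 and 6.40 in d26 arrays and 7.23 and 8.59 in adult arrays, a difference of 2.21 (SE 0.80, limma adjusted p = 0.208) between adult and d20 oocytes.
Hmox2 was highest at d26, with 4.83, 4.99 and 4.29 in d20 arrays, 5.85, 5.85 and 5.76 in d26 arrays and 4.77 and 4.69 in adult arrays. The d26 arrays overlapped with neither other age. The differences were 1.12 (SE 0.37, limma adjusted p = 0.414) for d26 minus d20 and -1.09 (SE 0.41, adjusted p = 0.606) for adult minus d26, and the first was -0.25 on deposited intensities.
Gstk1 was highest at d20, with 5.01, 5.17 and 4.99 in d20 arrays, 2.96, 3.03 and 3.57 in d26 arrays and 3.86 and 3.20 in adult arrays. The d26 minus d20 difference was -1.87 (SE 0.53, limma adjusted p = 0.414). Gsta4 stood at 5.16, 4.51 and 3.70 in d20 arrays, 0.98, 4.68 and 4.18 in d26 arrays and 5.08 and 6.42 in adult arrays, with an adult minus d26 difference of 2.47 (SE 0.87, limma adjusted p = 0.578) that rests on d26 array 1.

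The 3 age groups also differed in brightness: none of the d20 arrays was dim, 2 of the 3 d26 arrays and 1 of the 2 adult arrays were. Without the 4 dim arrays 1 gene was called in each comparison of ages: Gsto2 in adult minus d20 (-2.23, limma adjusted p = 0.0297), and Gsta4 in adult minus d26 (4.10, adjusted p = 0.0349) and in d26 minus d20 (-3.48, adjusted p = 0.0400). The d26 and adult groups then held 1 array each, again assumed to vary like the other groups. Gsto2 was also called in adult minus d20 without the dim adult in vivo array 1 (-3.60, limma adjusted p = 0.0494). Leaving out adult in vitro array 1 called Txnrd3 (-6.53, limma adjusted p = 0.00368), Txndc11 (-5.22, adjusted p = 0.0140) and Txndc16 (-2.72, adjusted p = 0.0254) in adult minus d20, with the dim array 2 as the adult group under the same assumption. In that fit Txnrd3 was also called in adult minus d26 (-5.75, limma adjusted p = 0.00835).

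**Figure D5:**
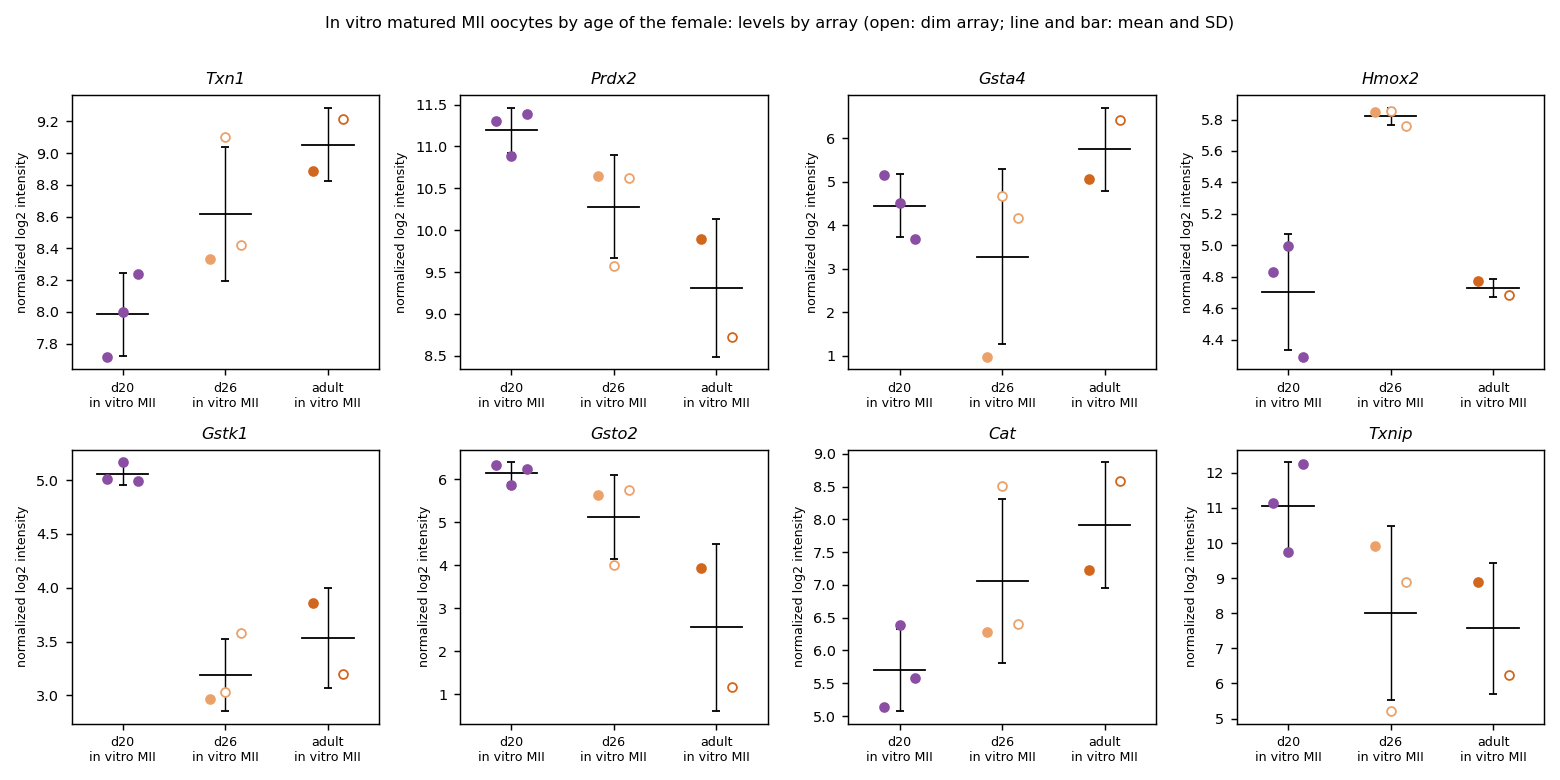
Normalized log2 intensity by array of 8 genes in in vitro matured MII oocytes of d20, d26 and adult females. Each point is 1 array, open points are dim arrays, and the line and bar give the mean and SD of the group. Txn1 and Cat are higher and Prdx2 and Gsto2 lower in both adult arrays than in all d20 arrays, and Hmox2 is highest at d26, while on deposited intensities Txn1 (-0.54, adult minus d20) and Hmox2 (-0.25, d26 minus d20) are negative.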

How the data were processed

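Per the labels' protocols, poly(A)+ RNA of 15 oocyte pools was amplified in 2 cycles, labelled as biotinylated cRNA and hybridized to Affymetrix arrays. The authors deposited 1 linear intensity for each probe set and array. The submitters' processing notes name MAS5 and no version, and the target intensity of its scaling is not given either. The 64 control probe sets were left out. Intensities were taken to log2 and quantile-normalized, and the upper 50% of probe sets by mean (a normalized log2 level of at least 3.07) were tested. A model with 6 group means was fitted to all 15 arrays with limma 3.58.1 in R 4.3.3 (lmFit and eBayes with a trend, 9 residual degrees of freedom), with Benjamini-Hochberg adjustment within each comparison. No replicates were identical (at most 0.0022% equal values in 105 pairs of arrays). The number of arrays limits the precision. Alternatives were deposited and median scaling, other filters, a pseudocount, no trend, array weights, the compared arrays alone, any probe set of a gene, updated symbols, and leaving out single arrays or the 4 dim ones; the mean over both ages and the list counts under them were added after the data were seen. The script was tested on simulated data. Members, lists and roles were chosen with earlier results of these data known. Every called member was named, or, where none was, the smallest p in each direction; 16 common antioxidant genes could always be named, and of each list the 4 genes with the smallest p against GV oocytes. Another 10 probe sets with a fitting symbol carried several symbols and were left out. Of the 66 genes, 34 had 1 probe set; 4 were read by s_at and 6 by x_at probe sets, which can bind related transcripts, as in the Gst, Txnl and Txndc families. Levels of different genes are not compared. Figures were drawn with matplotlib 3.10.9 in Python 3.11.15.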

Additional observations from a re-analysis of the deposited data

How the results depend on the processing

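Leaving out 1 array at a time gave 9 to 17 called genes for adult in vivo MII minus GV (9 without either GV array) and 10 to 22 for adult in vitro MII minus GV (10 without GV array 2), 0 to 2 for adult in vivo minus in vitro and for the mean over both ages, 0 to 3 for adult minus d20, 0 to 1 for adult minus d26, and 0 for the others. Over the same runs the Nrf2 list gave 0 to 1 calls in vivo and 1 to 2 in vitro, the NADPH list 6 to 7 and 3 to 7, the transport list 4 to 8 and 5 to 7, and the repair list 7 to 11 and 5 to 12. The falls of Glrx, Glrx5, Gsta4, Sod1 and Txndc9 stayed called in all 24 settings run for both comparisons with GV oocytes.

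With array weights 27 genes (11 higher, 16 lower), and without the 4 dim arrays 24 (8 higher, 16 lower), were called in adult in vivo MII minus GV, against 15. For these and all other settings the share of all tested genes called is not given here. The counts therefore do not tell a change of the list from a change of the whole array. Those settings gave 2 and 2 for the Nrf2 list and 12 and 10 for the transport list, and 2 for the Nrf2 list in vitro without the dim arrays. Txnrd1 turned to 0.91 and 1.25 and Nqo1 to 0.25 and 0.37 in vivo. When single arrays were left out, Txnrd1 ran between -1.16 and 1.25, Gss between -0.13 and 0.42 and Nqo1 between -0.51 and 0.37 in that comparison. Without the dim arrays 1 gene was called in d26 in vivo minus in vitro and in each age comparison. With the compared arrays alone the Nrf2 list gave 0 in vivo.

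On deposited intensities the in vivo differences turned for Gpx1 (-0.52), Sod2 (-0.13), Gclm (-1.06), Gss (-1.10), Gsr (-0.49), Nfe2l2 (-0.52) and Mafk (-0.78). In vitro they turned for Gclc (-0.65), Sod2 (-0.22), Txndc17 (-0.081), Gpx1 (-1.71), Gclm (-2.40), Gsr (-1.41), Nqo1 (-0.70), Nfe2l2 (-0.92), Bach2 (-0.27), Mafk (-1.17), Slc6a6 (-0.19), Slc7a11 (-0.42), Sepsecs (-0.18), Sesn3 (-0.45) and Msrb3 (-0.89). Sod2 turned in adult, d26 and mean in vivo minus in vitro (0.10, 0.43 and 0.26), Txn1 in adult minus d20 (-0.54) and Hmox2 in d26 minus d20 (-0.25). List counts were 0, 2, 3 and 4 in vivo for the Nrf2, NADPH, transport and repair lists, and 3 for the NADPH and 5 for the repair list in vitro. With median scaling Gclm (-0.28), Gss (-0.33) and Mafk (-0.0036) turned in vivo and Gpx1 (-0.30) and Gclm (-0.99) in vitro, and the counts were 0 for the Nrf2 and 3 for the NADPH list in vivo and 5 for the repair list in vitro. The cause was not tested.

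No paired analysis was possible because the replicate numbers only follow the order of the records and the labels give no number shared between groups. Low-signal genes have the widest errors, and 15 of the 66 were not tested.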
